A study of Mus musculus with 8 samples.

Results

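A set of 8 potassium channel genes was examined in gastrocnemius, a calf muscle of mainly fast fibres, from Hdac5 knockout mice and their wild type littermates. The genes are Kcng4, Kcnc1, Kcnc4, Kcnn3, Kcnj2, Kcnj8, Kcnj11 and Abcc9, which are 8 of the 19938 genes measured. They were named for channels of muscle fibres and of mural cells, the pericytes and smooth muscle cells that wrap blood vessels. A gene was measured by the probe set whose platform annotation gave its symbol alone, with the probe set chosen by the highest mean over the 8 arrays where there were several. Each of the 8 genes had exactly 1 such probe set, so its level decided nothing in practice. The genes were selected on their known roles with genotype differences of these data already in view. The p-values below, adjusted or not, therefore describe where each gene lies among all genes and are no independent support.

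RNA came from 4 Hdac5 knockout samples (KO, spelled HADAC5 KO in the labels) and 4 wild type littermate samples (WT). Per the labels, all mice were 30 weeks old, ate low-fat chow freely and had no treatment, and HDAC5 is the histone deacetylase that the study asks about in the control of interleukin 6. The sources used here do not give the part of Hdac5 that was removed, and no tissue-specific driver is named. The labels number the samples without saying that each is a separate animal, and p-values therefore rest on sample-to-sample spread that may be technical. Values are log2 signals of Affymetrix gene arrays, and a difference is KO minus WT.

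Potassium channels let potassium leave or enter the cell and so set the resting potential and end the action potential. Voltage-gated channels of the Kv families open on depolarisation, small-conductance channels open when calcium binds their calmodulin, and inward rectifiers hold the resting potential. ATP-sensitive channels combine a Kir6 pore with a sulfonylurea receptor and close when ATP is plentiful. In skeletal muscle they act during fatigue, and in vascular mural cells they control vessel tone.

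The targeted gene and the marker genes were checked first. Hdac5 averaged 8.33 ± 0.04 in KO samples and 9.83 ± 0.08 in WT samples (SD, n = 4 each), a difference of -1.5 (limma adjusted p = 1.74e-07). Fast fibre genes were bright in every sample, with a list mean of 14.10 to 14.14 in KO samples and 14.12 to 14.15 in WT samples, over 14 genes. Over all genes 13 passed at an adjusted p under 0.05 in limma, 8 higher and 5 lower in KO. The median difference over all genes was 0.00297.

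Among the 8 channel genes, Kcng4 was higher and Kcnj8 lower in every KO sample than in every WT sample, each by about the same amount on the log2 scale. The other 6 genes overlapped between genotypes. At an adjusted p under 0.05 over all genes, 0 of the 8 passed in limma, beside 0.0652% of all genes (0.0401% higher and 0.0251% lower in KO). At an unadjusted p under 0.05, 1 was higher in KO (Kcng4) and 2 were lower (Kcnj8 and Kcnc4), beside 7.90% of all genes (4.72% higher and 3.18% lower in KO). Groups did not overlap for 2 of the 8, 1 in each direction, beside 4.90% of all genes (2.91% higher and 1.99% lower in KO). Since the genes were named with these differences known, nothing is read from those shares. The median difference of the 8 was -0.094.

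**Figure D1:**
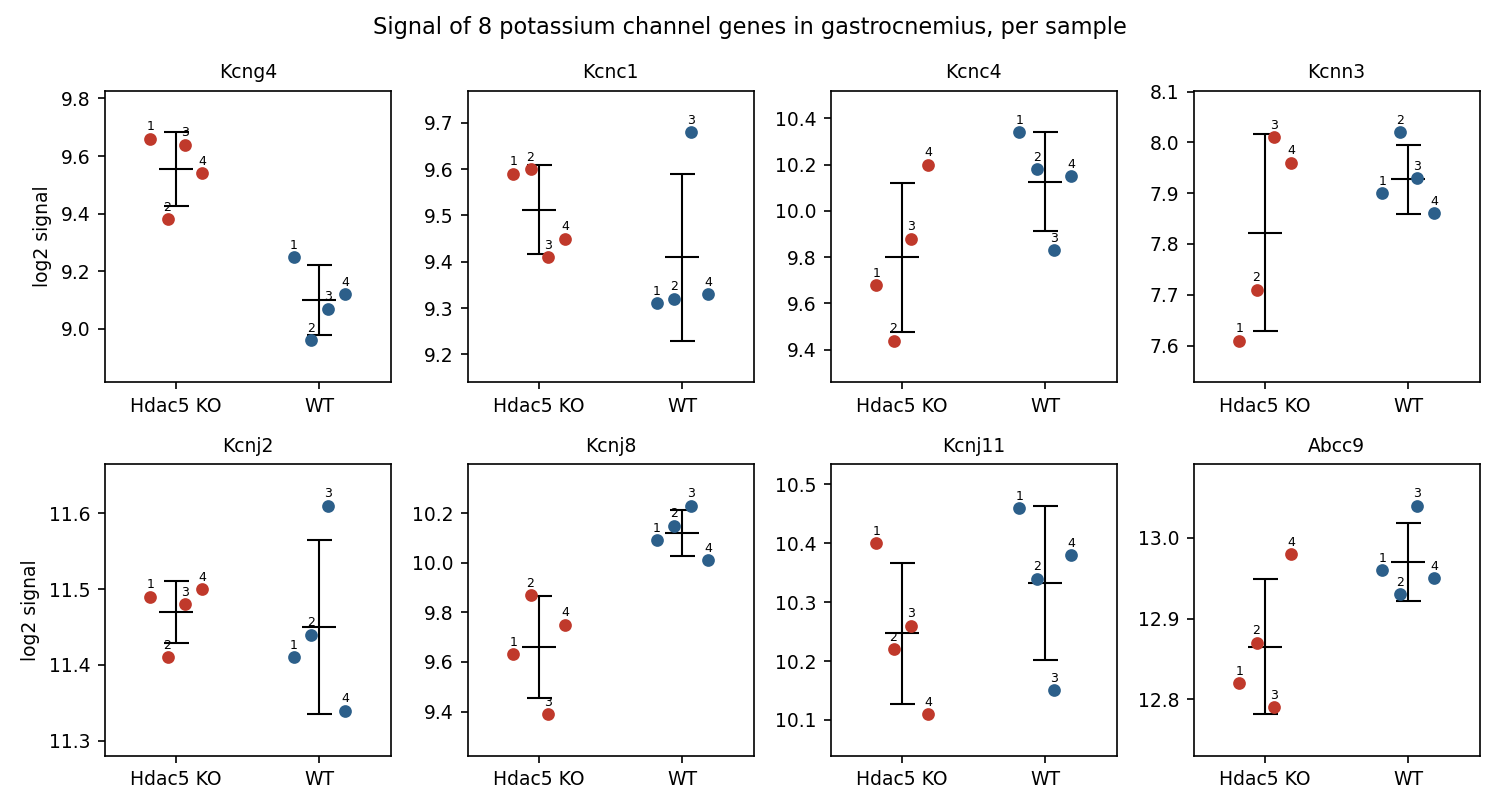
Log2 signal (y axis, a separate scale in each panel) of the 8 genes in the 4 Hdac5 KO samples (red, left) and 4 WT samples (blue, right), with the sample number above each point and the group mean ± SD in black. KO and WT points are fully apart for Kcng4 and Kcnj8, and they overlap in the other 6 panels.

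The promoters of the genes on which the results turn are shown because HDAC5 is best known as a partner that silences MEF2 transcription factors, and because Kcnj8 and Abcc9 lie next to each other and encode subunits that assemble together. Sequences are from RefSeq, build GRCm38.p6, and run 5′ to 3′ from 250 bases before to 50 bases after the annotated start. They cover chr8:119635631-119635930 for Kcng4, chr6:142571565-142571864 for Kcnj8 and chr6:142702225-142702524 for Abcc9, each on the minus strand. Capitals mark a match to the MEF2 consensus.
Kcng4: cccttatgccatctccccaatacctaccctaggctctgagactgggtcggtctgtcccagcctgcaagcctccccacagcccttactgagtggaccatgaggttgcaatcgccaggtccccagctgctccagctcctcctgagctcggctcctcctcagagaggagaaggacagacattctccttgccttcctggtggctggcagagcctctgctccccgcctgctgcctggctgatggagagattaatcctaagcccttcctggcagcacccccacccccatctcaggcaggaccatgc
Kcnj8: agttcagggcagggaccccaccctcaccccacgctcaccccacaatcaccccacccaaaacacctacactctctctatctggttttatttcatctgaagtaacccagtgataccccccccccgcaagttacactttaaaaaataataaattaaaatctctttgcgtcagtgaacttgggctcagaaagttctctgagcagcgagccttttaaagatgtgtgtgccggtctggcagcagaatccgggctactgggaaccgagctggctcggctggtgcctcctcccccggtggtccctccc
Abcc9: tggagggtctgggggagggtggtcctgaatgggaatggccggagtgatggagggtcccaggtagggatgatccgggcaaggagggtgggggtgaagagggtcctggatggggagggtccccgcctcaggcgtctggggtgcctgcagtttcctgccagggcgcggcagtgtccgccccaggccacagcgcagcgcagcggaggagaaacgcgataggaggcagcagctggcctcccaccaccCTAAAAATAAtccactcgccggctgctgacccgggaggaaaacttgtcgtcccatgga

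Of the 7 members with a promoter in that table (all but Kcnj11), Abcc9 had 1 match to the MEF2 consensus, whose first base lies 8 bases before the start, and the other 6 had 0. Such a match on either strand was found in 3.19% of the 32851 promoters in the table. The CArG box, the site of serum response factor in smooth muscle genes, matched in 0 of the 7 and in 1.63% of all promoters. The letters TATAAA matched in 0 of the 7 and in 13.6% of all promoters, on either strand. The E-box CANNTG, the site of MyoD-type factors, matched in all of the 7 but Kcnn3, and in 72.3% of all promoters. The searched motifs overlapped nowhere in the printed sequences. These are matches of letters within a short window and show no binding.

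Kcng4 encodes Kv6.4, a silent subunit that forms no channel alone and modifies the Kv channels that it joins. Its signal was 9.66, 9.38, 9.64 and 9.54 in KO samples 1 to 4, against 9.25, 8.96, 9.07 and 9.12 in WT samples 1 to 4. Every KO value lay above every WT value, and the gap between the lowest KO sample and the highest WT sample was small beside the difference of the means. The means were 9.55 ± 0.13 in KO and 9.10 ± 0.12 in WT (SD, n = 4 each). The difference was 0.46 (SE 0.080, 95% interval 0.28 to 0.63), a KO signal 1.37 times that of WT (interval 1.22 to 1.55). Its limma adjusted p over all genes was 0.0763. It passed with the replicate number as a block (adjusted p = 0.0270), with a trended and robust prior (0.0350) and with dim genes left out (0.0488). It did not pass in any of the 8 fits that left out 1 sample, where the difference ran from 0.41 to 0.516 and the adjusted p from 0.0808 to 0.219. Its exact 2-sided permutation p was 0.0286, unadjusted, the smallest that 4 against 4 samples can give. Every gene whose groups do not overlap has that value (4.90% of all genes), so it only restates the lack of overlap.

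Kcng4 was also set against the fibre type genes of the same array. Of 14 fast fibre genes, 1 had a higher mean in KO and 13 a lower one, 0 passed, and the median difference was -0.018. None had an unadjusted p under 0.05 in limma (beside 7.90% of all genes). Without overlap, 1 was higher (beside 2.91% of all genes) and 2 were lower (beside 1.99%). Atp2a1 and Actn3, the brightest of them, lay at the 100th percentile of mean signal. Whether differences are compressed at the top of the signal scale was not tested. Kcng4 minus the fast fibre mean was -4.72 to -4.45 in KO samples and -5.18 to -4.89 in WT samples, without overlap. The fast fibre mean hardly varied between samples, so these values largely repeat the Kcng4 difference and are a description with no test. Slow fibre genes had lower means in KO for 11 of 13, with a median difference of -0.42, and 0 passed over all genes. Before adjustment, 10 of the 13 were lower and 2 higher in KO at a limma p under 0.05 (92.3%, beside 7.90% of all genes), and 7 were lower without overlap (beside 1.99%). Their list mean was 10.68 to 11.11 in KO samples and 11.11 to 11.51 in WT samples, so the groups met at 1 edge. Tnnc1, the slow troponin C, had 10.28 in KO and 11.04 in WT (difference -0.76, limma adjusted p = 0.0763). The part of fibre type in the Kcng4 difference was not tested.

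Kcnc1 and Kcnc4 encode Kv3.1 and Kv3.4, high-threshold channels that open and close fast. Kv3.1 is a delayed rectifier best known from fast-spiking neurons, and Kv3.4 inactivates quickly and is found in skeletal muscle. Kcnc1 had 9.59, 9.60, 9.41 and 9.45 in KO samples 1 to 4, against 9.31, 9.32, 9.68 and 9.33 in WT samples 1 to 4. WT sample 3 was higher than all other samples, and the other 3 WT samples lay below all KO samples. The difference was 0.10 (SE 0.088, 95% interval -0.09 to 0.29, limma adjusted p = 0.841), and without WT sample 3 it was 0.19 (adjusted p = 0.579).

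Kcnc4 had 9.68, 9.44, 9.88 and 10.20 in KO samples 1 to 4, against 10.34, 10.18, 9.83 and 10.15 in WT samples 1 to 4. KO samples 1 and 2 lay below every WT sample, KO sample 3 lay just above WT sample 3, and KO sample 4 lay above all but 1 WT sample. The means were 9.80 ± 0.32 in KO and 10.12 ± 0.21 in WT (SD, n = 4 each), and the difference was -0.32 (SE 0.145, 95% interval -0.64 to -0.01, limma adjusted p = 0.612). Its spread within genotypes was wide, with a pooled SD of 0.27 at the 98.7th percentile of genes, where the median gene had 0.101. Leaving out 1 sample gave differences from -0.456 to -0.204. The accessory gene Kcne3, whose product joins Kv3.4 in muscle, had 6.60 in KO and 6.61 in WT.

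Kcnn3 encodes SK3, a small-conductance calcium-activated channel that is known to appear in denervated muscle and is also made by endothelium. Its signal was 7.61, 7.71, 8.01 and 7.96 in KO samples 1 to 4, against 7.90, 8.02, 7.93 and 7.86 in WT samples 1 to 4. KO samples 1 and 2 lay below the WT range, and KO samples 3 and 4 lay inside it. Its mean signal was at the 46.4th percentile, and of the 8 genes only Kcnn3 was dimmer than the median gene. The SD was 0.20 in KO and 0.07 in WT, and the difference was -0.10 (SE 0.089, 95% interval -0.30 to 0.09, limma adjusted p = 0.837). Of 11 measured genes known to rise on denervation, 3 had a higher and 8 a lower mean in KO, and 0 passed. In limma, 2 were lower and 0 higher at an unadjusted p under 0.05 (18.2%, beside 7.90% of all genes). Without overlap, 2 were lower, Musk and Chrnb1 (beside 1.99% of all genes), and 0 were higher (beside 2.91%). Musk, the receptor kinase of the neuromuscular junction, had 11.07 in KO and 11.48 in WT (difference -0.41, adjusted p = 0.180), without overlap. Endothelial markers spanned 9.82 to 10.09 in KO samples and 9.83 to 10.03 in WT samples as a list mean of 12 genes, with 5 higher and 7 lower in KO.

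Kcnj2 encodes Kir2.1, the inward rectifier that holds the resting potential of muscle fibres and is mutated in the human periodic paralysis Andersen-Tawil syndrome. Its signal was 11.49, 11.41, 11.48 and 11.50 in KO samples 1 to 4, against 11.41, 11.44, 11.61 and 11.34 in WT samples 1 to 4. KO samples sat within the WT range. The difference was 0.02 (SE 0.066, adjusted p = 0.960), and its interval of -0.12 to 0.17 bounds a KO signal between 0.919 and 1.12 times that of WT. Its sign turned without WT sample 4 (-0.0166) and with array weights (-0.00973). Kcnj12, which encodes the related Kir2.2, had 9.31 in KO and 9.28 in WT. Kcnj2 lies on chromosome 11, as Hdac5 does, with 113 tested genes between them.

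Of the ATP-sensitive channel genes, Kcnj8 was the one whose groups did not overlap. Kcnj8 encodes Kir6.1, the pore of the vascular channel and a common marker of pericytes. Its signal was 9.63, 9.87, 9.39 and 9.75 in KO samples 1 to 4, against 10.09, 10.15, 10.23 and 10.01 in WT samples 1 to 4. Every KO value lay below every WT value, with KO sample 3 the lowest and KO sample 2 nearest to WT. The means were 9.66 ± 0.20 in KO and 10.12 ± 0.09 in WT (SD, n = 4 each). The difference was -0.46 (SE 0.093, 95% interval -0.66 to -0.25), a KO signal 0.729 times that of WT (interval 0.633 to 0.840). Its limma adjusted p was 0.131, and over 15 alternatives that value ran from 0.0651 to 0.366. Its exact 2-sided permutation p was 0.0286, unadjusted, which again only restates the lack of overlap.

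Kcnj11 encodes Kir6.2, the pore of the channel in muscle fibres. It had 10.40, 10.22, 10.26 and 10.11 in KO samples 1 to 4, against 10.46, 10.34, 10.15 and 10.38 in WT samples 1 to 4. The groups overlapped over most of their ranges, and the difference was -0.08 (SE 0.081, 95% interval -0.26 to 0.09, limma adjusted p = 0.857).

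Abcc9 encodes the sulfonylurea receptor SUR2, whose splice forms serve muscle fibres and smooth muscle, and its 1 probe set does not tell them apart. It had 12.82, 12.87, 12.79 and 12.98 in KO samples 1 to 4, against 12.96, 12.93, 13.04 and 12.95 in WT samples 1 to 4. KO samples 1 to 3 lay below all WT samples, and KO sample 4 was above all but WT sample 3. The difference was -0.10 (SE 0.061, 95% interval -0.24 to 0.03, limma adjusted p = 0.731). Abcc8, the other sulfonylurea receptor gene, had 7.79 in KO and 7.82 in WT.

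Within each array, Kcnj8 minus Abcc9 was -3.19, -3.0, -3.39 and -3.23 in KO samples 1 to 4, against -2.87, -2.78, -2.81 and -2.94 in WT samples 1 to 4. The groups did not overlap, and their means differed by -0.35. Kcnj8 minus Kcnj11 was -0.87 to -0.35 in KO samples and -0.37 to 0.08 in WT samples, with a slight overlap. These within-array values are a description with no test, since Kcnj8 was named with its genotype difference in view.

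**Figure D2:**
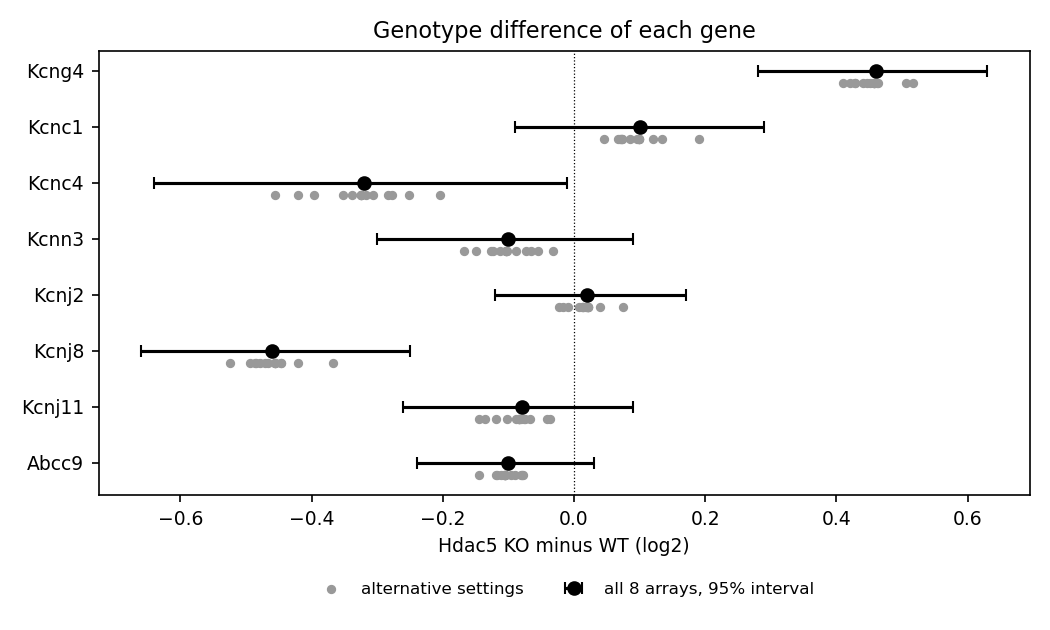
Difference in log2 signal, KO minus WT (x axis), for the 8 genes, with the 95% interval from all 8 arrays (black) and the estimates under 15 alternative settings (grey). The intervals of Kcng4 (0.28 to 0.63), Kcnj8 (-0.66 to -0.25) and Kcnc4 (-0.64 to -0.01) leave out 0, and the grey points of Kcnj2 fall on both sides of 0.

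Markers of mural cells were read beside Kcnj8 and Abcc9. In bulk muscle, fewer cells of a type and less RNA per cell cannot be told apart. Of 12 pericyte markers, 11 had a lower mean in KO, and 0 passed over all genes. At an unadjusted p under 0.05 in limma, 1 was higher and 3 were lower (33.3%, beside 7.90% of all genes). The higher one differed by 0.19. Their median difference was -0.092. The list mean was 8.83 to 8.98 in KO samples and 8.90 to 9.06 in WT samples, so the groups overlapped. Rgs5, the brightest of them, had 12.10 in KO and 12.11 in WT. Pdgfrb, the receptor by which pericytes are recruited, had 9.59 in KO and 9.75 in WT (difference -0.16, adjusted p = 0.591). Cspg4, which encodes NG2, had 8.17 in KO and 8.32 in WT (difference -0.15, adjusted p = 0.515).

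Of 9 smooth muscle markers, 7 had a higher and 2 a lower mean in KO, with a median difference of 0.054. Over all genes 0 passed, and at an unadjusted p under 0.05 in limma 2 were higher and 0 lower (22.2%, beside 7.90% of all genes). Acta2, smooth muscle actin, had 10.80 in KO and 10.34 in WT (difference 0.46, limma adjusted p = 0.176) without overlap. The list mean was 8.80 to 9.05 in KO samples and 8.73 to 8.89 in WT samples, so the groups overlapped. Kcnj8 minus the pericyte list mean was 0.49 to 0.93 in KO samples and 1.09 to 1.17 in WT samples, and Kcnj8 minus the smooth muscle list mean was 0.46 to 0.96 in KO samples and 1.22 to 1.5 in WT samples. Neither overlapped, and the differences of means were -0.38 and -0.58, beside -0.46 for Kcnj8 alone. Kcnj8 was named with its genotype difference in view, so these values are a description with no test. The part of mural cells in the Kcnj8 difference was not tested. Abcc9 minus the pericyte list mean overlapped, at 3.89 to 4.0 in KO samples and 3.87 to 4.05 in WT samples.

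**Figure D3:**
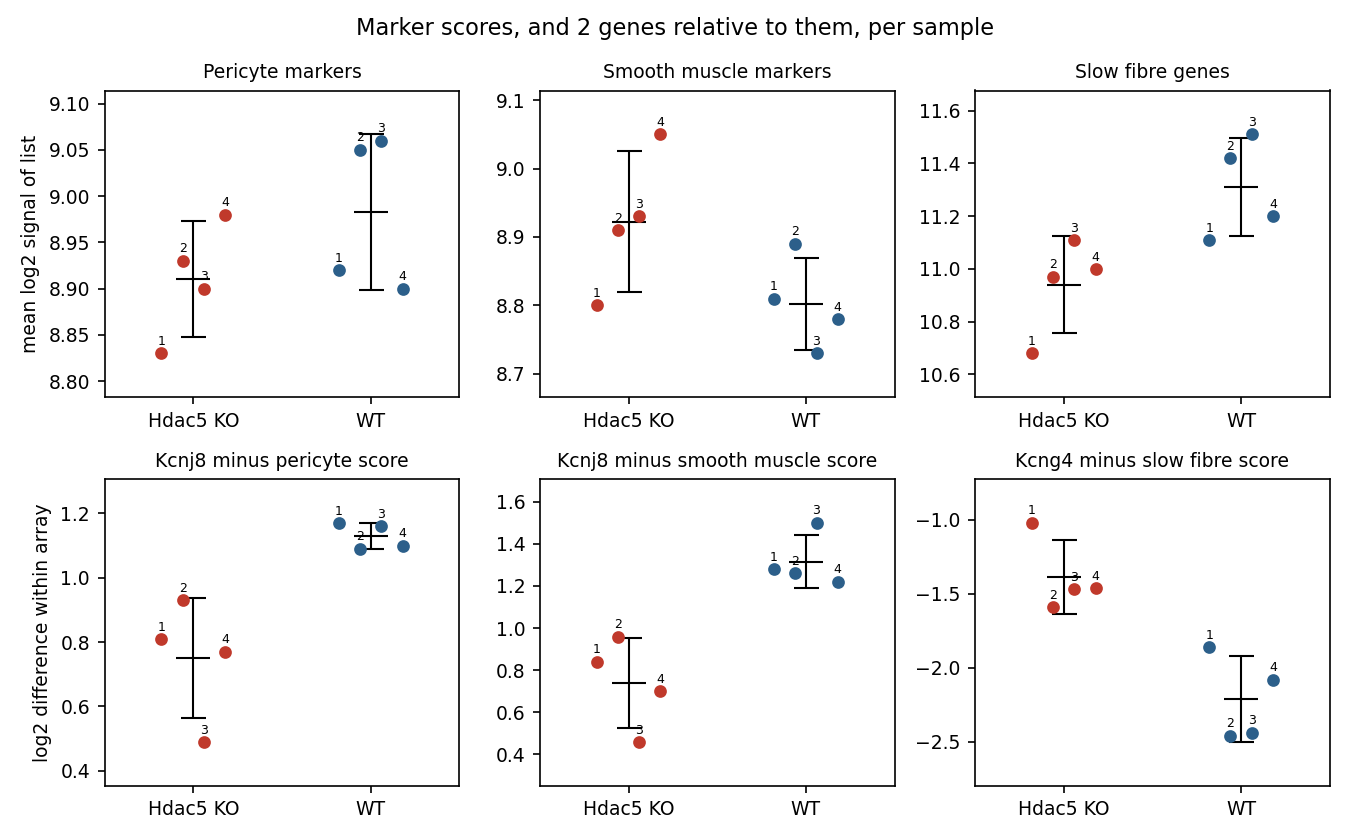
Top row, mean log2 signal of the pericyte, smooth muscle and slow fibre lists per sample, and bottom row, Kcnj8 or Kcng4 minus such a mean within the same array, in Hdac5 KO samples (red, left) and WT samples (blue, right), with sample numbers and group mean ± SD. Kcnj8 lies lower relative to both mural lists in all KO samples than in all WT samples, while the mural lists themselves overlap. Kcnj8 and Kcng4 were named with their differences in view, so the bottom row is a description with no test.

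Markers of other cells were read in the same way, and the list means of the genotypes overlapped in all 4 lists. The macrophage list had a higher mean in KO for 10 of 10 genes, a median difference of 0.35 and a list mean of 8.64 to 9.01 in KO samples and 8.32 to 8.71 in WT samples. The fibroblast list was higher for 9 of 9, with a median of 0.13 and a list mean of 10.15 to 10.44 in KO samples and 10.05 to 10.33 in WT samples. Of 6 measured Schwann cell markers 5 were lower in KO, with a list mean of 7.86 to 8.11 in KO samples and 8.01 to 8.32 in WT samples. The adipocyte list mean, over 6 genes, was 8.97 to 9.32 in KO samples and 8.21 to 10.07 in WT samples, with 3 higher and 3 lower. In each of these lists 0 genes passed over all genes in limma. At an unadjusted p under 0.05 in limma, 8 macrophage genes (80.0%) and 3 fibroblast genes (33.3%) were higher in KO. On the same measure 1 Schwann cell gene (16.7%) was lower and 0 adipocyte genes passed, beside 7.90% of all genes. The groups did not overlap for 2 macrophage genes, both higher in KO (beside 2.91% of all genes), and for 0 genes of the other lists. Their part in the channel gene differences was not tested.

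The rest of the potassium channel family was measured for 87 of 92 listed genes. At an adjusted p under 0.05 over all genes 0 passed in limma, and at an unadjusted p under 0.05 there were 2 higher and 4 lower in KO, 6.90% of the 87, close to the 7.90% over all genes. In all, 38 had a higher and 49 a lower mean in KO, with a median difference of -0.021. By kind, 12 of 32 voltage-gated pore and silent subunits, 10 of 21 accessory subunits, 4 of 13 inward rectifier and sulfonylurea receptor genes, 7 of 14 two-pore channel genes and 5 of 7 calcium- or sodium-activated channel genes were higher in KO. Most of these genes were dim, with 16 of 87 above the signal of the median gene, beside 7 of the 8 described here (all but Kcnn3). A dim probe set gives a compressed difference.

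Kcnab1, the cytosolic beta subunit of Kv1 channels, had the largest difference in that list. It had 7.85, 8.25, 8.05 and 9.64 in KO samples 1 to 4, against 9.67, 9.54, 8.68 and 9.23 in WT samples 1 to 4. KO sample 4 lay within the WT range and the other 3 KO samples below it, and the difference was -0.83 (SE 0.334, limma adjusted p = 0.543). Kcnq5, a subunit of M-type channels, had 10.24 in KO and 10.62 in WT (difference -0.38, adjusted p = 0.432). Kcna5, the Kv1.5 channel, had 8.19 in KO and 8.47 in WT (difference -0.28, adjusted p = 0.398).

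Kcnn2, which encodes the small-conductance channel SK2, had 8.50 in KO and 8.19 in WT (difference 0.31, adjusted p = 0.329). Kcnt2, a sodium-activated channel, had 7.17 in KO and 6.95 in WT (difference 0.22, adjusted p = 0.378), and Lrrc55, an accessory protein of large-conductance channels, had 7.34 in KO and 7.57 in WT (difference -0.23, adjusted p = 0.377). Among the 87 genes, the groups did not overlap for 1 higher in KO (Kcnt2) and 1 lower (Lrrc55), beside 4.90% of all genes (2.91% higher and 1.99% lower in KO). Both were dim, at the 28.9th and 37.5th percentile of mean signal.

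**Figure D4:**
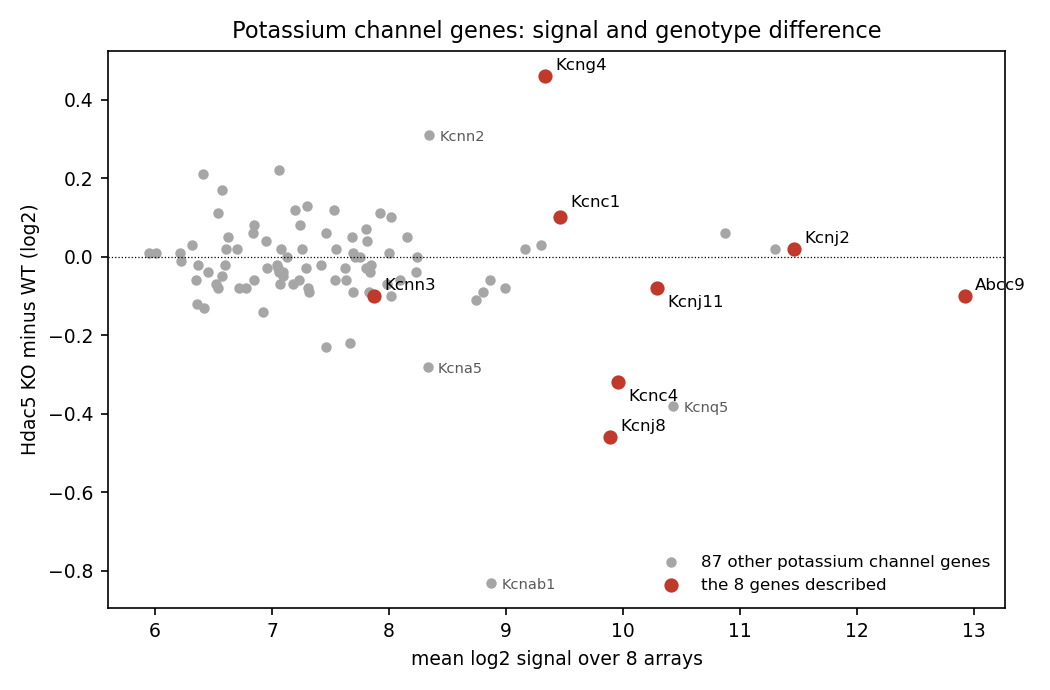
KO minus WT difference in log2 signal (y axis) against the mean log2 signal over 8 arrays (x axis) for the 8 genes described (red, named) and 87 other potassium channel genes (grey). Most grey points lie at low signal near 0, and Kcnab1 at -0.83 is the lowest point.

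Other genes of the fibre membrane were listed as a comparison. Of 14 measured sodium, chloride and calcium channel, sodium pump and triad genes, 4 had a higher and 10 a lower mean in KO, 0 passed, and the median difference was -0.029. At an unadjusted p under 0.05 in limma, 1 was higher and 4 lower in KO (35.7%, beside 7.90% of all genes). Without overlap, 4 were lower (beside 1.99% of all genes) and 0 higher (beside 2.91%). The higher one was Atp1b4, named after its values were seen, at 8.55 in KO and 8.24 in WT (difference 0.31, adjusted p = 0.462). Its place among sodium pump genes rests on the list alone, and a role in the pump was not examined. Atp1b2, a beta subunit of the sodium pump, had 11.79 in KO and 12.07 in WT (difference -0.29, limma adjusted p = 0.401). Cacng1, the gamma subunit of the calcium channel of the transverse tubule, had 12.42 in KO and 12.60 in WT (difference -0.17, adjusted p = 0.447), and Fxyd1, phospholemman, which regulates the pump, had 11.97 in KO and 12.13 in WT (difference -0.15, adjusted p = 0.457).

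Several of the genes lie close together. Kcnj8 and Abcc9 are adjacent on chromosome 6 with 0 tested genes between them. Kcnj11 is adjacent to Abcc8 on chromosome 7, and 4 tested genes separate it from Kcnc1. On the other side of Kcnj8 lies Ldhb, which encodes the heart-type lactate dehydrogenase subunit and had 10.49 in KO and 10.72 in WT (difference -0.22, adjusted p = 0.563). The gene model 5330439B14Rik, beyond Abcc9, had 6.67 in KO and 6.87 in WT (difference -0.19, adjusted p = 0.399). The neighbours of Kcng4, Adad2 and Wfdc1, differed by 0.02 and 0.06. Myod1, the myogenic factor next to Kcnc1, differed by 0.07.

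The samples that carried the extremes differed between genes. WT sample 3 held the highest or lowest WT value in 6 of the 8 genes, highest for Kcnc1, Kcnj2, Kcnj8 and Abcc9 and lowest for Kcnc4 and Kcnj11, beside 45.1% of all genes. KO sample 2 held a KO extreme in 5 of the 8, beside 40.3% of all genes. Deviations from the genotype mean over the 8 arrays, which may be technical, were compared as a description. Kcnj8 and Abcc9 had a Pearson correlation of 0.629, Kcnc1 and Kcnc4 -0.766, and Kcnj11 and Abcc9 -0.740. Pairs of genes that are not partners reached like sizes, such as Kcnc1 and Kcnj2 (0.681) and Kcng4 and Kcnj8 (-0.66).

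Over 9968 genes brighter than the median gene (9969 for Kcnn3), the closest in those deviations over 8 arrays was Add1 for Kcng4 (0.971), Gdap10 for Kcnc1 (0.979) and Nat14 for Kcnc4 (0.956). It was Lurap1 for Kcnn3 (0.997), Pbld1 for Kcnj2 (0.955) and Abca3 for Kcnj8 (0.968). It was Smyd1 for Kcnj11 (0.983) and Atp2b1 for Abcc9 (0.957). With 8 arrays and so many genes such values are reached easily, and they are given as a description only.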

How the data were processed

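The authors deposited 1 table of log2 signals, 1 value per probe set and array, made with Affymetrix Expression Console 4.0 per the submitters' processing notes. The log2 scale was read from the values. The sources used here do not give the steps of background correction, summarisation and normalization. Per the labels' protocols, 150 ng of RNA with an integrity number above 8 was amplified for each array. Array medians lay between 7.69 and 7.77.

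Of 35556 probe sets, 21789 had exactly 1 symbol in the platform annotation, 1621 several and 12146 none, which left 19938 genes. RefSeq tables of GRCm38.p6 gave gene order and promoters. KO and WT were compared with limma 3.58.1 in R 4.3.3 (lmFit, eBayes, genotype as the only term), with Benjamini-Hochberg adjustment over 19938 genes, after tests on simulated data. SE and 95% intervals are limma's moderated ones. Exact permutation tests used all 70 arrangements. The number of arrays limits the precision.

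The 8 genes and all lists were chosen with earlier results of these data known. The lists cover other potassium channels, fibre membrane excitability, fast fibres, slow fibres, denervation, pericytes, smooth muscle, endothelium, Schwann cells, macrophages, fibroblasts and adipocytes. The rule for further names took the 6 other channel genes of smallest p, up to 3 of smallest p per list with the 2 brightest markers, listed partner subunits, chromosome neighbours and the 3 genes closest in deviations, of which the closest and some of the rest are printed. Some listed genes were not analysed here. Alternatives were a replicate block, a trended and robust prior, quantile normalization, a filter on dim genes (below the 25th percentile), array weights, a mean over probe sets and leaving out each sample.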

Additional observations from a re-analysis of the deposited data

Results flagged for a closer look

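Single samples stood apart from the other 3 of their genotype, by Dixon's test for 4 values, in 11 of 154 groups checked over 77 genes, where chance gives about 1 in 20. Among the 8 channel genes this was Kcnc1 in WT sample 3, at 9.68 beside 9.31 to 9.33 in the other WT samples. Among the other channel genes, Lrrc55 was at 7.18 in KO sample 2, and Kcna5 was at 8.57 in WT sample 3. KO sample 1 stood apart for Mylk2 (12.70), Tpm3 (11.59), Sox10 (7.88), Dcn (13.85) and 5330439B14Rik (6.56). Hdac5 was at 8.39 in KO sample 4, beside 8.31 to 8.32 in the other KO samples, Col1a2 at 10.50 in KO sample 2, and Fabp4 at 12.03 in WT sample 2.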

How the results depend on the processing

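The count of genes past an adjusted p of 0.05 moved with the settings, while the directions of 7 of the 8 channel genes stayed the same in all 15 alternatives. In limma 13 genes passed in all, against 30 with the replicate block, 44 with a trended and robust prior, 23 after quantile normalization, 36 with dim genes left out, 31 with array weights, and 5 to 20 with 1 sample left out. It was also 5 without both KO sample 1 and WT sample 4, which lay farthest apart on the leading principal component and were chosen for this after seeing the data. Without single samples it was 5 without WT sample 2 or WT sample 4, 7 without KO sample 2, 8 without KO sample 1 or WT sample 1, and 20 without KO sample 4. The cause was not tested.

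Of the 8 channel genes 0 passed, against 1 (Kcng4) with the replicate block, with the trended and robust prior and with dim genes left out, and 0 in each of the 8 fits with 1 sample left out. Kcnj2 changed sign with array weights (-0.00973), without WT sample 4 (-0.0166) and without both KO sample 1 and WT sample 4 (-0.0236), and ran from -0.0166 to 0.0748 with 1 sample left out. Other potassium channel genes stayed at 0 in all 15 alternatives. Same-numbered samples correlated in their deviations at 0.338, -0.115, -0.153 and 0.340, while differently numbered samples ran from -0.326 to 0.204. With values of mixed sign, this does not decide whether the numbers pair the samples. The block changed no other call among the 8 genes. Signals near the background limit what dim channel genes can show.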
